A study of Rattus norvegicus with 12 samples.

Results

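The change of gene expression from 1 week to 3 weeks after simulated birth injury (SBI) was examined in the pubocaudalis, a pelvic floor muscle, of rats that nursed their pups. The comparison took the 3 libraries labelled 3wk SBI + Lac against the 3 labelled 1wk SBI + Lac, 6 of the 12 libraries of the series, and every gene that passed a low-count filter was a member. Of 30206 genes in the table, 14596 passed. A further 30 genes, 27 of them without a symbol, had been left out because they were at 0 in all 1-week libraries and had at least 100 counts over the 3-week libraries.

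The animals were 3-month-old female Sprague-Dawley rats, all of them injured by vaginal balloon distention on gestation day 20. Lactating rats kept their litters, and the 3-week samples fall at the time of weaning. In the other 6 libraries, 1wk SBI and 3wk SBI, the pups had been removed after birth, and these rats are called non-lactating. RNA of 2 rats went into each library as a pool, and every n below counts such pools. All libraries came from injured rats, so no level here can be set against uninjured muscle.

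Injured skeletal muscle is rebuilt by satellite cells, which divide, commit to the muscle lineage and fuse with one another and with damaged fibers. New fibers first use embryonic and neonatal forms of myosin, actin and acetylcholine receptor, and replace them with adult forms as they mature and regain their nerve supply. Fibroblasts meanwhile lay down collagen and other matrix, which is later remodeled, and immune cells clear debris and leave.

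Total counts per library were 30862144, 31243010 and 39844090 at 1 week and 34464120, 70187854 and 10704307 at 3 weeks, so 3wk SBI + Lac replicate 3 was the shallowest of these 6 and also lay farthest from its group on the first principal component. The 1-week values are whole counts, whereas 26.6% to 40.5% of the values in the 3-week libraries carry decimals, as estimated counts do. Time and the way of counting therefore cannot be told apart for any single change given here. Of the genes tested, 13451 carry a decimal in some 3-week library, and the other 1145 had a median log2 fold change of -0.28, against -0.016 over all 14596 genes. Of the 12 skeletal muscle markers tested, none passed the test described below, edgeR's, or DESeq2, and 3 had an unadjusted p under 0.05. Acta1, skeletal actin, was at 42920, 42530 and 38450 depth-normalized counts (CPM) at 1 week and at 59980, 67520 and 61780 CPM at 3 weeks, and Ckm, muscle creatine kinase, at 16640 to 20300 and 24910 to 31530 CPM.

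Among genes past the cutoffs, far more were lower than higher at 3 weeks. Over all 14596 genes tested, the log2 fold change was below 0 for 7634 and above 0 for 6958. The cutoffs were an adjusted p below 0.05 in edgeR's quasi-likelihood test and a fold change of more than 1 on the log2 scale in either direction. By these, 100 genes (0.685% of those tested) fell from 1 week to 3 weeks and 13 (0.0891%) rose. The 3 libraries of one time point did not overlap with those of the other for any of these 113 genes, as was the case for 28.1% of all genes tested. Since the 113 were picked on the same libraries, this is no added support for them. Log2 fold changes, given throughout as 3 weeks over 1 week, had a median of -1.86 among the genes that fell and 1.37 among those that rose. The number of calls depended on single libraries. With replicate 1, 2 or 3 of 1wk SBI + Lac left out, 54, 66 and 29 genes were called lower and 8, 12 and 2 higher. With replicate 1, 2 or 3 of 3wk SBI + Lac left out, 30, 24 and 35 were called lower and 5, 3 and 10 higher. In all 6 of these fits 18 of the 100 and 1 of the 13 passed, and 35 and 4 passed in none. All 113 kept their direction in every fit that was run and could test them, and DESeq2 on all 12 libraries called each of the 113.

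**Figure D1:**
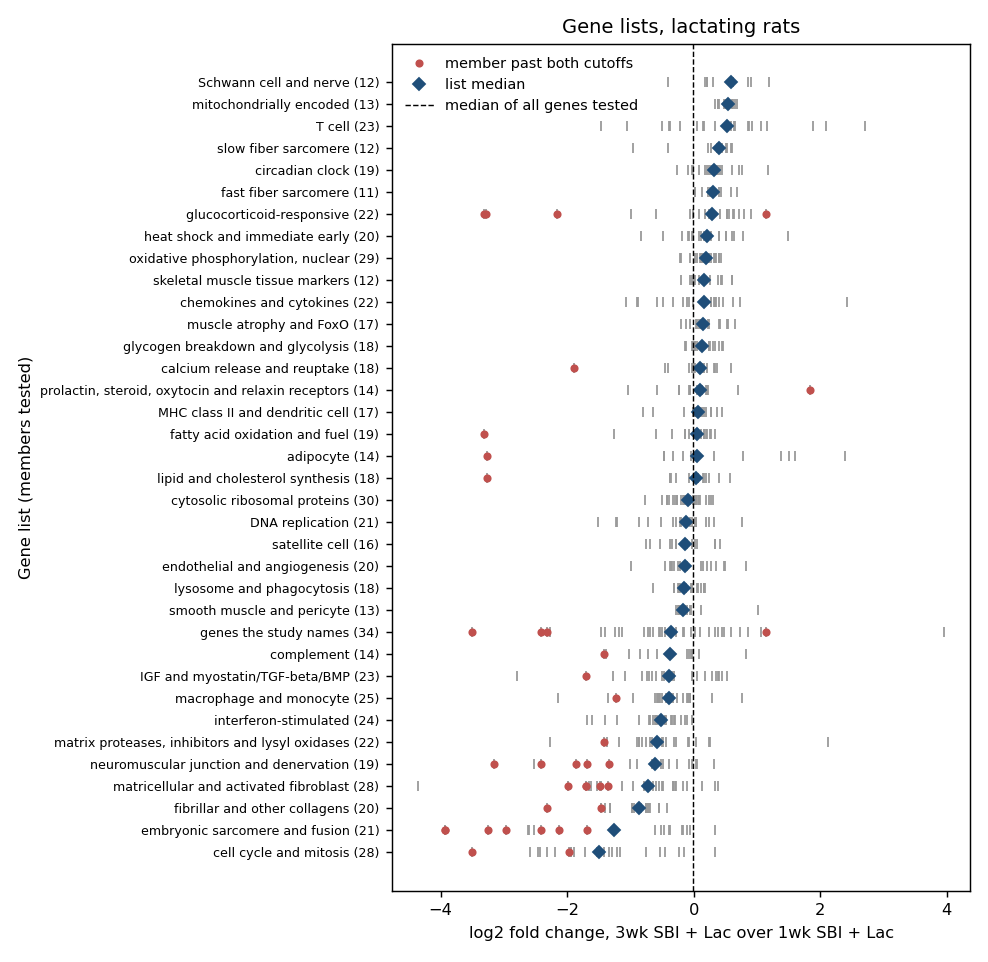
Each row is a gene list with its number of members tested, grey ticks are members on the log2 fold change axis (3wk SBI + Lac over 1wk SBI + Lac), red points are members past both cutoffs and diamonds are list medians. Among these lists with at least 10 members tested, the cell cycle list lies lowest with a median of -1.50, followed by embryonic sarcomere and fusion genes at -1.26 and collagens at -0.86, while the dashed line marks the median of all genes, -0.016.

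Genes of newly formed muscle fibers were lower at 3 weeks. Igfn1 and the fusion genes Mymk and Mymx fell the most in that list, and the embryonic contractile genes Myl4 and Actc1 fell as well. Of 21 genes of the embryonic sarcomere and of fusion, 7 fell, none rose and 20 had a log2 fold change below 0, with a median of -1.26. In bulk tissue, fewer new fibers and less of these RNAs per fiber cannot be told apart.

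Igfn1, an immunoglobulin-like protein of the sarcomere's Z disc, was at 342, 195 and 160 CPM at 1 week and at 10.1, 20.3 and 14.7 CPM at 3 weeks. The 2 time points were far apart in every library, and the log2 fold change was -3.94 (standard error 0.54, adjusted p = 0.00993, edgeR). Mymk encodes myomaker, the membrane protein that lets myoblasts fuse. It went from 10.3, 7.56 and 10.6 CPM to 1.30, 0.748 and 1.10 CPM, which is -3.25 on the log2 scale (standard error 0.58, adjusted p = 0.0262). Mymx encodes myomixer, the small partner of myomaker in fusion. Its level was 11.2, 3.39 and 5.76 CPM at 1 week, 0.261 and 0.667 CPM in the first 2 pools at 3 weeks, and 0 counts in the third, which allows up to 0.330 CPM in that library. The log2 fold change of Mymx was -3.93 (standard error 0.77, adjusted p = 0.0356).

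The window around the first of 3 annotated starts of Mymx is shown because this gene had, with Igfn1, the largest change of the list, and because muscle regulatory factors of the MyoD family bind E-boxes of the letters CAGCTG. It is RefSeq's GRCr8 sequence chr9:22894274-22894573, plus strand, from 250 bases before to 50 bases after the start, and the 2 copies of CAGCTG, found by a search of both strands, are in capitals.
Mymx: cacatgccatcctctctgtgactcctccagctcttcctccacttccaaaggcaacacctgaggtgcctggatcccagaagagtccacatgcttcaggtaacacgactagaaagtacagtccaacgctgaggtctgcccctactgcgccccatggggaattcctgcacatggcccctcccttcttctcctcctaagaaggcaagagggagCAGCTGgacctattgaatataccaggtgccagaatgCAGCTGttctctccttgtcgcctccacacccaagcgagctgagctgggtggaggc
The copies begin 41 and 5 bases before the start. Of 33469 promoter windows of this length in the same table, 15.1% hold CAGCTG and 1.69% hold at least 2 copies. Of the 7 list members that fell, 5 have a window in the table, and 3 of those hold the motif, namely Igfn1, Myl4 and Mymx.

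Among the contractile proteins, Myl4, the embryonic and atrial light chain, was at 24.5, 41.4 and 53.2 CPM at 1 week and at 7.33, 4.72 and 2.09 CPM at 3 weeks (log2 fold change -2.96, standard error 0.60, adjusted p = 0.0439). Actc1, the actin of heart and developing muscle, which was added to the named genes after its values were seen, fell from 521 ± 102 to 119 ± 28.2 CPM (SD, n = 3 each). The developmental myosins did not pass the test. Myh3, embryonic myosin heavy chain, was at 431, 446 and 764 CPM at 1 week and at 70.7, 81.4 and 116 CPM at 3 weeks, a log2 fold change of -2.62 with a standard error of 0.57 and an adjusted p of 0.0508. For Myh8, the neonatal form, the mean was 234 CPM at 1 week and 38.3 CPM at 3 weeks (adjusted p = 0.0658). Both myosins passed in DESeq2 and in edgeR with only the 6 lactating libraries, where the adjusted p of Myh3 was 0.00914 and that of Myh8 0.0304. Regulators at the head of the program had smaller differences and did not pass. Myog, a transcription factor of differentiating muscle cells, had a log2 fold change of -0.62 (adjusted p = 0.111), and Pax7, which marks satellite cells, one of -0.38 (adjusted p = 0.548). Of 16 satellite cell genes tested none passed in edgeR or DESeq2, with an unadjusted p under 0.05 for 3 higher and 2 lower. Of the list members that fell, Igfn1 passed in 5 of the 6 fits that left out a library, Actc1 in 3, Chrnd in 2, Mymx, Mymk and Ncam1 in 1 each and Myl4 in none. The count of 7 became 3, 6 and 1 without replicate 1, 2 and 3 of 1wk SBI + Lac and 0, 1 and 2 without replicate 1, 2 and 3 of 3wk SBI + Lac, while DESeq2 on all 12 libraries called 11.

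**Figure D2:**
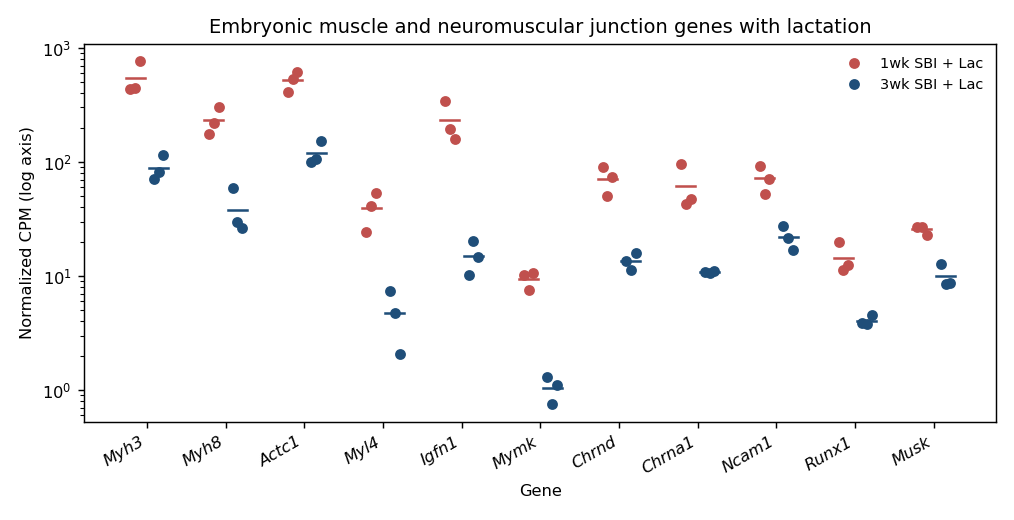
Points are normalized CPM (log axis) of single libraries and lines are means of 3, at 1 week (red) and 3 weeks (blue) after SBI in lactating rats. In all 11 genes every 3-week library lies under every 1-week library, Myh3 at 70.7 to 116 against 431 to 764 CPM; Myh3, Myh8 and Chrna1 missed the adjusted cutoff.

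Genes that muscle fibers switch on when they lack a nerve, or before they have one, were lower at 3 weeks as well. Of 19 genes of the neuromuscular junction and of denervation, 5 fell and none rose, with a median log2 fold change of -0.62. Chrnd, the delta subunit of the muscle acetylcholine receptor, went from 90.1, 50.2 and 73.3 CPM to 13.5, 11.3 and 15.9 CPM (log2 fold change -2.42, standard error 0.38, adjusted p = 0.0141). No 3-week pool came near a 1-week pool. Runx1, a transcription factor induced in denervated fibers, fell from 14.5 ± 4.65 to 4.07 ± 0.385 CPM (SD, n = 3 each; adjusted p = 0.0229). Also among the members that fell were Ncam1, an adhesion molecule of developing and denervated fibers, from 71.6 to 21.9 CPM, and Musk, the receptor kinase that organizes the junction, from 25.7 to 10.0 CPM. Chrna1, the alpha subunit, had a log2 fold change of -2.52 but an adjusted p of 0.0576. The count of 5 became 1, 4 and 0 without replicate 1, 2 and 3 of 1wk SBI + Lac and 1, 0 and 0 without replicate 1, 2 and 3 of 3wk SBI + Lac, and DESeq2 on all 12 libraries called 6. Runx1, Musk and Ncam1 each passed in 1 of these 6 fits. Chrnd and Ncam1 are members of both this list and the fusion list.

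Matrix genes were lower at 3 weeks almost throughout, though only some passed the test. All 20 collagens tested had a log2 fold change below 0, with a median of -0.86, and for 19 of them the libraries of the 2 time points did not overlap, as for 14.7% of all genes tested in that direction. Only Col8a1 and Col19a1 fell. Col8a1, a short-chain collagen, was at 22.9, 21.7 and 26.2 CPM at 1 week and at 9.31, 9.69 and 5.83 CPM at 3 weeks (log2 fold change -1.46, standard error 0.20, adjusted p = 0.00363). Col19a1, a collagen found at basement membrane zones, went from 26.9, 16.0 and 13.4 CPM to 3.42, 3.84 and 4.18 CPM (log2 fold change -2.32, standard error 0.45, adjusted p = 0.0345). Col8a1 passed in all 6 fits that left out a library, and Col19a1 in none of them.

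The abundant fibrillar collagens varied more between pools. Col1a1 was at 729, 976 and 1739 CPM at 1 week and at 512, 472 and 260 CPM at 3 weeks, or -1.47 on the log2 scale (standard error 0.46, adjusted p = 0.125). Col3a1 was at 2072, 2396 and 3797 CPM and then at 1222, 1193 and 888 CPM (log2 fold change -1.32, adjusted p = 0.0596), and Col1a2 had a log2 fold change of -1.32 (adjusted p = 0.0960). The third pool was the highest at 1 week and the lowest at 3 weeks for these 3 genes. The median of the 20 collagens was -0.66 without 1wk SBI + Lac replicate 3 and -0.94 without 1wk SBI + Lac replicate 2.

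Of 28 matricellular and activated fibroblast genes, 5 fell and none rose, with a median of -0.72. Bgn encodes biglycan, a small proteoglycan of the collagen network, and was at 224, 224 and 330 CPM at 1 week and at 78.0, 95.4 and 65.2 CPM at 3 weeks (log2 fold change -1.70, standard error 0.25, adjusted p = 0.00525). Thbs4, thrombospondin 4 of tendon and muscle attachment sites, was at 288, 245 and 335 CPM and then at 115, 85.0 and 66.5 CPM (log2 fold change -1.70, standard error 0.24, adjusted p = 0.00431). Both were lower in every 3-week pool, and both passed whichever lactating library was left out. Ltbp2, which binds latent growth factor complexes and elastic fibers, fell from 5.13 ± 0.248 to 1.25 ± 0.242 CPM, Eln, elastin, from 159 ± 17.5 to 56.5 ± 19.4 CPM, and Fn1, fibronectin, from 532 ± 163 to 208 ± 29.3 CPM (SD, n = 3 each). The adjusted p-values of these 3 were 0.0262, 0.0125 and 0.0488. Lox, the lysyl oxidase that cross-links collagen and elastin, fell from 17.2 to 6.30 CPM (adjusted p = 0.00919). It was the only one of 22 proteases, inhibitors and lysyl oxidases to pass. Of the 22, 18 had a log2 fold change below 0 and 4 above, up to 2.12, with a median of -0.59. An unadjusted p under 0.05 was met by 13 lower and 2 higher. Lox and Eln missed the cutoffs without 1wk SBI + Lac replicate 3 and without 3wk SBI + Lac replicate 2, and Fn1 and Ltbp2 in each of the 6 fits. Postn, periostin, had a mean of 350 CPM at 1 week and 110 CPM at 3 weeks with an adjusted p of 0.126. Of the 28 genes, 4, 3 and 2 passed without replicate 1, 2 and 3 of 1wk SBI + Lac and 3, 2 and 3 without replicate 1, 2 and 3 of 3wk SBI + Lac. Mfap4 and Aspn, matrix proteins outside the lists and chosen after their values were seen, fell by 1.28 and 1.06 on the log2 scale.

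**Figure D3:**
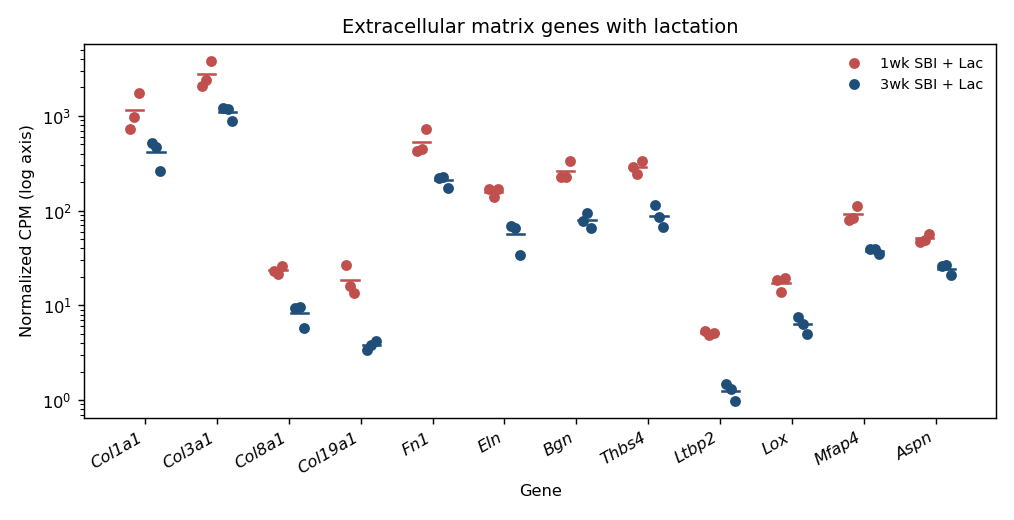
Normalized CPM (log axis) of 12 matrix genes in single libraries, with lines at the mean of 3, at 1 week (red) and 3 weeks (blue) with lactation. No 3-week library reaches a 1-week library in any of them; the step is widest for Col19a1 and Ltbp2, while Col1a1, which like Col3a1 missed the adjusted cutoff, spreads the most at 1 week, from 729 to 1739 CPM.

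Mitotic genes had few counts at both times, and fewer at 3 weeks. Of 28 cell cycle and mitosis genes, 27 had a log2 fold change below 0, with the lowest median of the lists with at least 10 members tested, -1.50. Only Prc1 and Ccnb2 passed. Prc1, which bundles microtubules at the spindle midzone, was at 1.41, 1.80 and 2.77 CPM at 1 week and at 0.521, 0.488 and 0.550 CPM at 3 weeks (log2 fold change -1.97, standard error 0.37, adjusted p = 0.0164). Ccnb2, cyclin B2, was at 0.394, 1.15 and 0.478 CPM and then at 0.130, 0 and 0.110 CPM (adjusted p = 0.0440), which is at the level of a few counts. Mki67, the proliferation marker Ki-67, was at 3.15, 4.34 and 5.85 CPM at 1 week and at 1.76, 1.28 and 1.76 CPM at 3 weeks. Its libraries did not overlap, but with a log2 fold change of -1.53 and a standard error of 0.64 its adjusted p was 0.241. For Top2a, a topoisomerase of dividing cells, the means were 2.90 and 0.613 CPM (adjusted p = 0.146). Of 21 DNA replication genes none passed in edgeR or DESeq2, and their median was -0.12. An unadjusted p under 0.05 was met by 2 that were higher and 1 that was lower. DESeq2 on all 12 libraries called 6 of the mitotic genes. Without 1wk SBI + Lac replicate 3, or without any one of the 3-week libraries, none of the 28 passed, and without replicate 1 or 2 of 1wk SBI + Lac 1 did.

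The promoter of Ccnb2 is shown because many mitotic genes carry CCAAT boxes and a TTTGAA element near their start. The window is chr8:79981609-79981908, minus strand, GRCr8 (RefSeq), with CCAAT and TTTGAA, each searched on both strands, in capitals.
Ccnb2: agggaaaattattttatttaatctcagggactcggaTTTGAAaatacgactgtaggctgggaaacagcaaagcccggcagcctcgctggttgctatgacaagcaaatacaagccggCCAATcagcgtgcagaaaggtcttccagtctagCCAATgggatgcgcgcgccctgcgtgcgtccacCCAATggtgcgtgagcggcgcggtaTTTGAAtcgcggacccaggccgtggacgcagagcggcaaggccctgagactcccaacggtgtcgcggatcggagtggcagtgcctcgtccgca
It holds 3 CCAAT boxes, beginning 134, 101 and 68 bases before the start, and TTTGAA at 214 and 43 bases before it. At least 3 CCAAT occur in 3.02% of all windows and at least 2 TTTGAA in 2.51%. The window of Prc1, not printed, holds fewer, with 2 CCAAT and 1 TTTGAA. As many or more occur in 11.2% and 18.3% of the windows. Of the 22 cell cycle genes with a window, 16 hold CCAAT (72.7%) and 15 hold TTTGAA (68.2%), against 39.6% and 19.4% of all 27457 symbols in the table. All 28 had been listed by function, without use of these letters.

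Both measured metallothioneins fell. Metallothioneins bind zinc and other metals and are induced by metals, oxidative stress and glucocorticoids. Mt1 was at 15.7, 10.9 and 17.9 CPM at 1 week and at 1.30, 1.89 and 0.989 CPM at 3 weeks, or -3.29 on the log2 scale (standard error 0.37, adjusted p = 0.00282). Mt2A was at 20.8, 12.8 and 17.4 CPM and then at 4.00, 3.94 and 3.19 CPM, or -2.16 on the log2 scale (standard error 0.35, adjusted p = 0.0113). For both genes the levels of the 2 time points did not overlap. Reads of Mt1 may be shared with pseudogene copies, so its value is less certain. Mt1 passed whichever library was left out, and Mt2A missed the cutoffs in each of the 3 fits that left out a 3wk SBI + Lac library.

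The promoters of both genes are printed because metal response elements are the known metal-responsive parts of metallothionein promoters. The pattern searched, TGCNCNC, is looser than the core of these elements, so a match need not be one. They are the GRCr8 windows chr19:10832926-10833225 for Mt1 and chr19:10838659-10838958 for Mt2A, both on the minus strand and taken from RefSeq, and matches to TGCNCNC on either strand are in capitals.
Mt1: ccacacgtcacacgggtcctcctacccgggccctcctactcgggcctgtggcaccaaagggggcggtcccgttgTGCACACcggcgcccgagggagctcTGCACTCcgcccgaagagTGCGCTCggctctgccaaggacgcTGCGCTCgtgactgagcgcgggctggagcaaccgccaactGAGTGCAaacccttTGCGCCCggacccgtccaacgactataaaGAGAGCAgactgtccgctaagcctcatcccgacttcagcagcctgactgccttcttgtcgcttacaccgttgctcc
Mt2A: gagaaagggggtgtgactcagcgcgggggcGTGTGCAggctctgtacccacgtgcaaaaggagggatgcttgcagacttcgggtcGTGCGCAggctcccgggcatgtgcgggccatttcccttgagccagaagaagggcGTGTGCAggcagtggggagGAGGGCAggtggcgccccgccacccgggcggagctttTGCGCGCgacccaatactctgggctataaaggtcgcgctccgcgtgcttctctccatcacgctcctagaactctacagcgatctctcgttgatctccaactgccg
The Mt1 window holds 7 matches, as many as or more than which occur in 0.108% of the windows in the table, and that of Mt2A holds 5 (0.669%). At least 1 match is found in 49.6% of the windows.

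Several single genes of metabolism and stress fell steeply. Scd, stearoyl-CoA desaturase, which makes monounsaturated fatty acids, was at 228, 221 and 257 CPM at 1 week and at 29.2, 18.98 and 25.4 CPM at 3 weeks (log2 fold change -3.27, standard error 0.40, adjusted p = 0.00422). It was the only one of 18 lipid and cholesterol synthesis genes to pass, and their median was 0.04. Angptl4, a secreted inhibitor of lipoprotein lipase that fatty acids and fasting induce, was at 3.34, 5.25 and 1.86 CPM and then at 0.391, 0.211 and 0.659 CPM (log2 fold change -3.32, standard error 0.51, adjusted p = 0.00500), and of the 6 fits that left out a library it missed the cutoff in the one without 3wk SBI + Lac replicate 2. It was likewise alone among 19 genes of fatty acid oxidation and fuel choice, whose median was 0.05. Klk1, tissue kallikrein, a protease that releases kinins, fell from 27.9 ± 7.23 to 2.51 ± 0.511 CPM, and Emb, embigin, a membrane partner of monocarboxylate transporters, from 15.6 ± 5.02 to 1.39 ± 0.103 CPM (SD, n = 3 each), with adjusted p-values of 0.00282 and 0.0314. Sln, sarcolipin, which binds the calcium pump of the sarcoplasmic reticulum, fell from 66.6 ± 13.8 to 18.0 ± 4.09 CPM (adjusted p = 0.0483), the only one of 18 calcium handling genes that passed. Scd and Klk1 passed in all 6 fits that left out a library, and Emb and Sln in none of them. Ankrd1, a stretch-responsive protein that binds titin, Tubb6, a beta-tubulin, Map1a, a microtubule-associated protein, and Lgals1, galectin-1, were chosen after their values were seen because they passed in all 6 fits that left out a library. Ankrd1 fell from 224 ± 67.6 to 47.5 ± 8.19 CPM, Tubb6 from 102 ± 28.0 to 18.0 ± 0.845 CPM, Map1a from 121 ± 23.4 to 28.6 ± 3.51 CPM and Lgals1 from 301 ± 31.9 to 115 ± 7.22 CPM (SD, n = 3 each).

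Igf2 and Peg10 fell. Igf2, insulin-like growth factor 2, was at 380, 412 and 598 CPM at 1 week and at 118, 155 and 155 CPM at 3 weeks (log2 fold change -1.70, standard error 0.29, adjusted p = 0.0136), and was the only one of 23 genes of the IGF, myostatin, TGF-beta and BMP list that passed, while DESeq2 on all 12 libraries called 3. Peg10, a gene of retrotransposon origin, was at 10.1, 16.8 and 20.6 CPM and then at 1.56, 1.50 and 2.75 CPM (log2 fold change -3.19, standard error 0.54, adjusted p = 0.0196). Igf2 passed in 2 of the 6 fits that left out a library, those without 1wk SBI + Lac replicate 1 or 2, and Peg10 in 1, without 1wk SBI + Lac replicate 1. Both are imprinted, that is, expressed from 1 parental copy. A few other imprinted genes are given here that were picked after their values were seen, with no list of imprinted genes behind them, so they say nothing of imprinted genes as a group. Nnat fell from 10.3 ± 1.98 to 1.27 ± 0.462 CPM and Plagl1 from 43.0 ± 14.7 to 19.8 ± 1.94 CPM (SD, n = 3 each). Dlk1 was at 30.3, 40.6 and 86.2 CPM at 1 week and at 12.2, 5.38 and 4.51 CPM at 3 weeks, but with an adjusted p of 0.0630 it did not pass.

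Transcripts of red blood cells were lower at 3 weeks. Hbb, beta-globin, was at 332, 338 and 243 CPM at 1 week and at 58.2, 109 and 85.1 CPM at 3 weeks (log2 fold change -1.85, standard error 0.27, adjusted p = 0.00650). Alas2, the erythroid enzyme of heme synthesis, fell from 6.25 ± 2.34 to 1.13 ± 0.325 CPM and Hba-a1, alpha-globin, from 383 ± 67.1 to 104 ± 29.6 CPM (SD, n = 3 each), the latter with reads that near-identical copies can share. Hemoglobin transcripts made up 0.0767%, 0.0705% and 0.0583% of all counts at 1 week and 0.0117%, 0.0213% and 0.0164% at 3 weeks. Of the 7 erythroid genes tested, 3 fell, and with a library left out 1 passed without 3wk SBI + Lac replicate 1 and 2 in the other fits. With library sizes computed without erythroid, milk and mitochondrially encoded genes, 97 genes were lower and 13 higher over the whole table.

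Few immune genes passed. Gpnmb, a glycoprotein of phagocytic macrophages, was at 45.4, 53.6 and 57.9 CPM at 1 week and at 23.7, 26.3 and 16.1 CPM at 3 weeks (log2 fold change -1.22, standard error 0.21, adjusted p = 0.0135). It was the only one of 25 macrophage and monocyte genes that passed, although 23 of them had a log2 fold change below 0, with a median of -0.39, and it missed the cutoffs without 1wk SBI + Lac replicate 3 and without 3wk SBI + Lac replicate 1. None of 23 T cell genes passed in edgeR. An unadjusted p under 0.05 was met by 2 higher and 1 lower, and DESeq2 called 1 higher and 1 lower. The median of the 23 was 0.52 and became -0.17 without 3wk SBI + Lac replicate 2. Of 17 genes of MHC class II and dendritic cells and of 22 chemokines and cytokines, none passed in edgeR or DESeq2. An unadjusted p under 0.05 was met by 1 gene in each list, lower in the former and higher in the latter. Cfi, complement factor I, fell from 3.20 to 1.28 CPM, alone among 14 complement genes, and passed in no fit that left out a library. All 24 interferon-stimulated genes had a log2 fold change below 0 and none passed in edgeR, with an unadjusted p under 0.05 for 6 and 1 called by DESeq2. The median of -0.52 rested on 1 library, being -0.04 without 1wk SBI + Lac replicate 1. Isg15, a ubiquitin-like protein induced by interferon, was at 4.56 CPM in that library and at 1.15 and 1.27 CPM in the other 1-week pools, against 0.553, 1.07 and 0.220 CPM at 3 weeks.

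Few genes rose. The largest of the 13 rises was that of Fscn2, a fascin that bundles actin, which lies outside the naming rule because of its low level and is given after its values were seen. It was at 0.361, 1.05 and 0.454 CPM at 1 week and at 3.45, 4.00 and 1.87 CPM at 3 weeks (log2 fold change 2.37, standard error 0.49, adjusted p = 0.0272), and passed in 2 of the 6 fits that left out a library, those without 1wk SBI + Lac replicate 2 or 3wk SBI + Lac replicate 3. Among the genes that reached 5 CPM, Cish rose the most. Cish is a suppressor of cytokine signaling that the transcription factor STAT5 switches on downstream of growth hormone, prolactin and several cytokines, and whose product restrains the same receptors. It was at 7.61, 8.21 and 4.47 CPM at 1 week and at 15.9, 30.5 and 25.5 CPM at 3 weeks. Every 3-week pool was above every 1-week pool, and the log2 fold change was 1.84 (standard error 0.24, adjusted p = 0.00363). It was the only gene that rose and also passed in all 6 fits that left out a library. Of the 14 receptor and signaling genes listed with it (receptors for prolactin, growth hormone, steroids and relaxin, STAT5 and its targets), the other 13 did not pass and the median was 0.09.

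The promoter of Cish is shown because STAT5 binds sites of the form TTCNNNGAA. The window is chr8:116850719-116851018, plus strand, GRCr8 (RefSeq), and matches, which read alike on both strands, are in capitals.
Cish: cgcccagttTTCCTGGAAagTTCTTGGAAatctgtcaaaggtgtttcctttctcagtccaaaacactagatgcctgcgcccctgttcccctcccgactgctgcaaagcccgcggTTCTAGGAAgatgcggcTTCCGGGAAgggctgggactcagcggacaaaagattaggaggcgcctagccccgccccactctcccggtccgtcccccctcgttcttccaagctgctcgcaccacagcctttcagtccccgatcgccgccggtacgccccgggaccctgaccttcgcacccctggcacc
It holds 4 matches, beginning 241, 230, 136 and 119 bases before the start. Of the 33469 windows, 8.87% hold at least 1 match and 0.00598% hold 4 or more. Of the 9 genes that rose and have a window, only Cish holds a match (11.1%). That share is near the 9.72% of the genes that fell and the 9.39% of all symbols.

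Fkbp5, a chaperone cofactor that the glucocorticoid receptor induces and that dampens its signaling, was at 17.8, 22.6 and 11.9 CPM at 1 week and at 46.2, 31.4 and 38.1 CPM at 3 weeks (log2 fold change 1.15, standard error 0.20, adjusted p = 0.0134). The glucocorticoid-responsive list leaned upward but did not follow 1 direction. Of 22 members tested, 1 rose and 3 fell, these being Mt1, Mt2A and Angptl4, and the median was 0.29. The log2 fold change was above 0 for 15 and below 0 for 7, with an unadjusted p under 0.05 for 9 higher and 4 lower. Libraries did not overlap for 11 higher and 4 lower members, as for 13.4% and 14.7% of all genes tested. Tsc22d3, the glucocorticoid-induced leucine zipper, was at 92.0 to 118 CPM at 1 week and 115 to 127 CPM at 3 weeks (adjusted p = 0.538). Fkbp5 missed the cutoffs without 1wk SBI + Lac replicate 3 and without 3wk SBI + Lac replicate 1.

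Fanca, a core subunit of the Fanconi anemia DNA repair complex, was at 2.00, 1.22 and 1.82 CPM at 1 week and at 4.98, 5.40 and 4.84 CPM at 3 weeks (log2 fold change 1.60, standard error 0.37, adjusted p = 0.0398), and it missed the cutoffs in each of the 6 fits that left out a library. The other genes that rose and met the naming rule did so by smaller steps. Arrdc2, an arrestin-domain protein, went from 4.82 ± 0.318 to 10.3 ± 1.30 CPM, Med26, a Mediator subunit, from 5.98 ± 0.660 to 12.6 ± 1.33 CPM, Depp1, a target of FoxO factors, from 11.1 ± 2.64 to 23.6 ± 7.90 CPM and PCOLCE2, an enhancer of procollagen processing, from 10.7 ± 0.210 to 22.0 ± 2.30 CPM (SD, n = 3 each). Arrdc2 passed in 5 of the 6 fits that left out a library, Med26 in 4, Depp1 in 1 and PCOLCE2 in none. Hspa8-ps22, a pseudogene of a heat shock protein whose reads the parent gene can share, went from 1.99 to 5.07 CPM.

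Among genes of the mature fiber none passed in edgeR or DESeq2. All 11 fast fiber genes had a log2 fold change above 0, from 0.01 to 0.68 with a median of 0.31, and 4 had an unadjusted p under 0.05. Myh4, the fastest adult myosin, was at 46020, 47790 and 35440 CPM at 1 week and at 57370, 54380 and 42100 CPM at 3 weeks, with overlap between the time points. All 13 mitochondrially encoded transcripts tested were likewise above 0, with a median of 0.54, and 8 had an unadjusted p under 0.05. Mt-co1, a subunit of cytochrome oxidase, overlapped between the time points, at 30130 to 42310 and 39710 to 55620 CPM. The 12 slow fiber genes had a median of 0.40 and the 29 nuclear genes of oxidative phosphorylation one of 0.19.

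Few markers of other tissues passed. Of 15 milk and mammary genes, 10 had too few counts to test. None of the 5 tested passed in edgeR, and 2 had an unadjusted p under 0.05, both higher. Their median log2 fold change was 2.75, with 4 above 0 and 1 below. Csn1s1, a casein, was at 0.131, 1.19 and 1.15 CPM at 1 week and at 12.6, 3.53 and 0 CPM at 3 weeks, so that 1 library was at 0 counts (a limit of 0.330 CPM) and the time points overlapped. Summed over all tested members, markers of the squamous and other epithelium were at 14.2 to 23.4 CPM at 1 week and 11.9 to 16.1 CPM at 3 weeks, those of smooth muscle and pericytes at 6382 to 6586 and 5852 to 6623 CPM, and those of Schwann cells and nerve at 104 to 155 and 123 to 261 CPM, and no member of these lists passed in edgeR or in DESeq2 on all 12 libraries. A single member, of the smooth muscle list, had an unadjusted p under 0.05, and DESeq2 on the 6 lactating libraries called 1 member of that list higher. Of 14 adipocyte genes Scd alone passed in edgeR, and an unadjusted p under 0.05 was met by 4 higher and 2 lower. No B cell gene of 5 passed in edgeR, and DESeq2 called 1 higher. Summed, these were at 3.36 to 6.12 CPM at 1 week and at 7.36, 36.6 and 2.86 CPM at 3 weeks, with 3wk SBI + Lac replicate 2 far above the others. Hist2h4 fell from 6.93 to 3.29 CPM, but polyadenylated histone reads are shared between near-identical copies and are uncertain. Among 34 genes that the study names for this experiment, chosen in part on these samples, 3 fell (Alox15, a lipoxygenase, C1qtnf3, an adipokine-like secreted protein, and Col19a1) and Fkbp5 rose. Those 3 genes passed in none of the fits that left out a library, and neither did Hist2h4.

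The same interval in non-lactating rats was used to ask which of these changes depended on nursing. There, 161 genes (1.1%) fell and 54 (0.37%) rose, 1.47% of those tested in all. The comparison shares no library with the lactating one, but it shares the change in counting from whole to estimated values, and which is therefore common to both sides of the difference between the 2 time changes. Of the 100 genes that fell with lactation, 98 had a log2 fold change below 0 without it and 65 also passed there, and the medians were -1.86 and -1.49. Of the 13 that rose, 12 were above 0 and 5 also passed, with medians of 1.37 and 0.85. The 113 genes were picked on the lactating change, which by itself tends to make their lactating medians the larger ones. These medians therefore do not show that the changes were larger with lactation. None of the 113 passed edgeR's test of the difference between lactating and non-lactating rats. An unadjusted p under 0.05 was met there by 21 of them, and DESeq2 called 3. That test contains the lactating change on which the 113 were picked, which favors small p-values among them. The 21 therefore cannot be weighed against the share over all genes. Over all genes, 1 passed that test (0.00685% of those tested) and 645 (4.42%) had an unadjusted p under 0.05. Among the genes with steep changes in both were Mymk -3.25 with and -3.86 without lactation, Actc1 -2.13 and -3.16, and Klk1 -3.55 and -3.42.

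**Figure D4:**
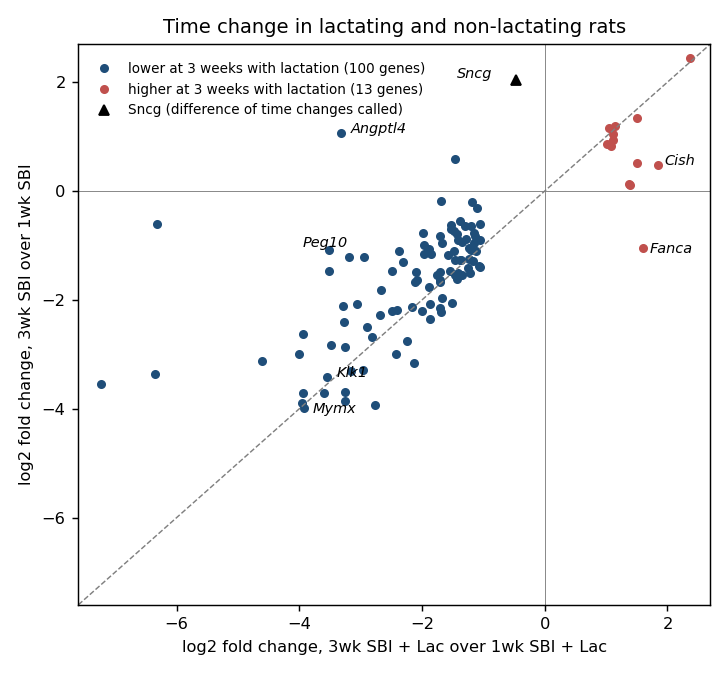
Each point is a gene that passed in lactating rats, with its log2 fold change from 1 to 3 weeks in lactating (horizontal) and non-lactating rats (vertical); the dashed line marks equal change. Of the 100 genes that fell, 98 lie under 0 on both axes and Angptl4 is one of the other 2; Fanca alone among the 13 that rose lies under 0 without lactation, and Sncg, the triangle, is the gene whose difference passed.

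Sncg encodes gamma-synuclein, a protein of peripheral neurons and adipocytes. It was at 11.3, 11.3 and 16.0 CPM at 1 week and at 10.1, 10.1 and 6.92 CPM at 3 weeks with lactation (log2 fold change -0.48, adjusted p = 0.166), whereas in non-lactating rats the mean went from 6.17 ± 1.04 to 25.4 ± 1.75 CPM (SD, n = 3 each). The difference of the time changes was -2.51 (edgeR, adjusted p = 0.000615, standard error 0.25) and also passed whichever lactating library was left out. No fit left out a non-lactating library, although Sncg moved more in those rats. The 3wk SBI libraries were uneven in depth, at 10082734, 17334602 and 75634391 counts. For Angptl4 the difference was larger but less precise, -4.38 (standard error 0.66, adjusted p = 0.0525), its mean going from 1.17 ± 0.467 to 2.35 ± 0.650 CPM without lactation. Over the alternatives its adjusted p ran from 1.38e-06 in DESeq2 to 0.565 with libraries thinned to equal depth, and it passed without 1wk SBI + Lac replicate 3 (0.0198). Pdk4, the kinase that holds back glucose oxidation, had a log2 fold change of -0.59 with and 1.98 without lactation, and a difference of -2.57 with a standard error of 0.70 (adjusted p = 0.999). For Fanca the difference was 2.64 (standard error 0.57, adjusted p = 0.496) and for Cish 1.36 (standard error 0.33, adjusted p = 0.755), and neither passed in edgeR. In DESeq2 the adjusted p was 0.000292 for Fanca and 0.101 for Cish. Peg10 had a log2 fold change of -1.22 in non-lactating rats, and its difference of -1.97 (standard error 0.70) did not pass either (adjusted p = 0.999).

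**Figure D5:**
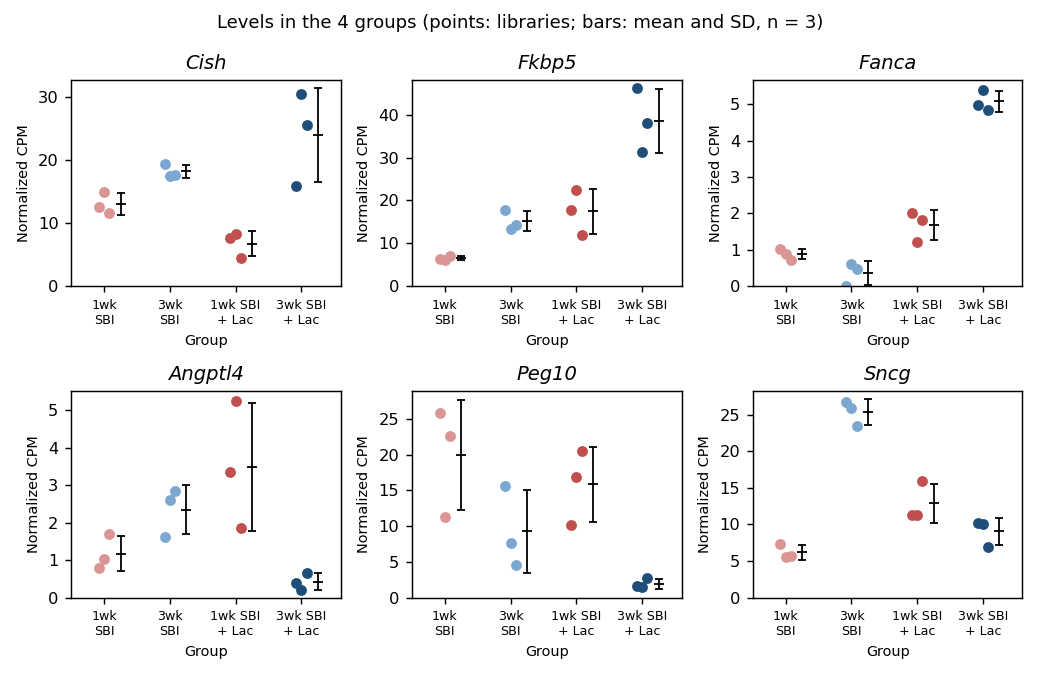
Normalized CPM of 6 genes in all 4 groups, with points for libraries and bars for the mean and SD of 3. Sncg is at 23.5 to 26.8 CPM in 3wk SBI and at 6.92 to 10.1 CPM in 3wk SBI + Lac; Fkbp5 is higher at 3 weeks in both kinds of rat, while Angptl4 in 3wk SBI + Lac, at 0.211 to 0.659 CPM, is under every other library.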

How the data were processed

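RNA was sequenced from 12 libraries of pubocaudalis muscle, 3 in each of 4 groups, with a stranded mRNA kit. The authors deposited 1 table of gene counts for the whole series, and all of its sample columns were mapped by name (0 unmapped). As deposited, the 1-week columns hold whole counts. The 3-week columns deposited by the authors hold estimated counts with decimals, which were rounded here. Salmon is named in the submitters' processing notes. Its version and role, the aligner, and the build and annotation used are not given in the sources used here.

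Counts were fitted over all 12 libraries with edgeR 4.0.16 (R 4.3.3, limma 3.58.1), using filterByExpr, TMM scaling and a robust quasi-likelihood fit with 1 coefficient for each group. P-values were two-sided and Benjamini-Hochberg adjusted over all 14596 genes. A gene passed where the adjusted p was below 0.05 and the change exceeded 1 on the log2 scale in either direction. Each standard error is the fold change divided by the root of its F statistic. CPM were computed with TMM library sizes. Left out were 30 genes at 0 in every 1-week library with at least 100 counts over the 3-week libraries. By the labels, the pools of a group hold different rats, while the study calls the pools technical replicates. They are not stated to be independent cohorts. P-values measure the spread between pools of 2 rats, which holds differences between rats as well as technical ones. The shallowest lactating library limits detection, 3 counts there being 0.330 CPM, and such limits cover counting error only.

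The comparison, its members and the gene lists were chosen with earlier results of these data known. Named were the 10 genes with the largest change in each direction among those that passed, had a symbol, reached a mean of 5 CPM in 1 group and did not overlap; up to 3 members of each list that passed with a mean of at least 1 CPM; the anchors fixed for each list; and genes whose time changes differed. Genes outside this rule are marked where singled out, and Chrna1, Ncam1, Musk, Eln, Ccnb2 and Myog were likewise chosen after their values were seen. The scripts were tested on simulated data. Alternatives were DESeq2 1.42.0 (on all or on the 6 lactating libraries), other scalings, filters and cutoffs, a replicate block, thinning to equal depth, genes with whole values only, and each lactating library left out. The study's serum and staining data were not analysed here, and some single genes are not reported here. Promoters are RefSeq sequences of GRCr8 and were matched by symbol.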

Additional observations from a re-analysis of the deposited data

Results flagged for a closer look

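Sncg was the gene whose change over time differed between lactating and non-lactating rats in the test of that difference. The difference was -2.51 on the log2 scale, lactating minus non-lactating (edgeR, adjusted p = 0.000615), and ranged from -2.60 to -2.32 over the alternatives, with an adjusted p of at most 0.00590. None of these alternatives left out a non-lactating library.

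Of the 30 genes left out of the tests, 18 had more than 3 counts over the 3wk SBI + Lac libraries, the limit that a count of 0 allows, and all of them were at 0 in every 1-week library. Of these, 17 had no symbol, and the largest summed count over the 3 libraries was 1088. All of that sum lay in 3wk SBI + Lac replicate 2, with 0 in replicates 1 and 3. In replicate 3, the shallowest, none of the 30 genes had more than 4 counts. Counts thus also differed between 3-week libraries that were counted alike. Since the 2 time points were counted differently, presence of these genes and the way of counting cannot be told apart. Groups of 3 libraries were too small to examine for a lone outlying value.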

How the results depend on the processing

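The main counts were 13 genes higher, 100 lower and 1 whose time change differed with lactation. DESeq2 on all 12 libraries gave 36, 209 and 11, DESeq2 on the 6 lactating libraries 48 higher and 207 lower, and edgeR on those 6 libraries 27 and 163. With no low-count filter the difference of time changes was called for 2 genes. A refit on only the genes with whole values at 3 weeks, filtered and scaled anew, gave 1, 15 and 0. In the main fit 1145 such genes were tested, of which 0 were called higher and 10 lower. Libraries thinned to 10082566 counts gave 8 higher, 79 lower and 2 for the difference. With no fold cutoff 99 were higher and 194 lower, and at an adjusted p under 0.01 it was 3 and 25. With 1 lactating library left out, higher calls ran from 2 to 12, lower calls from 24 to 66 and calls of the difference from 1 to 2. With the replicate number as a block the counts were 7, 74 and 2. Replicate numbers of the 2 time points did not pair: the correlations of same-numbered pools were -0.005, -0.106 and -0.089, and 0 of 3 correlated best with its own number. The cause of these shifts was not tested beyond the smaller sets that some alternatives use. All 113 genes kept their direction. The shallowest lactating library, at 10704307 counts, limits what can be seen of genes near 0.330 CPM.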
